A study of Mus musculus with 26 samples.

Results

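The myogenic regulatory factors are the 4 genes Myf5, Myod1, Myog and Myf6, and their transcripts were followed through muscle regeneration and through differentiation of C2C12 myoblasts with and without repression of Mettl3, the catalytic subunit of the m6A RNA methyltransferase. The members were the rows carrying these 4 symbols, of 53465 genes in the regeneration table and 55487 in the cell table, and each symbol had 1 row in each table. Myf5, Myod1 and Myog passed the filter on low values in both tables, whereas Myf6 passed it in muscle only.

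These proteins share a basic helix-loop-helix domain, pair with ubiquitous E proteins and bind the E-box, whose letters are CANNTG. Myf5 and Myod1 commit cells to the muscle lineage and mark activated myoblasts, Myog drives the step from dividing myoblast to fusing myocyte, and Myf6, also called Mrf4, is the member best known from mature fibres. Id proteins and other repressors hold the family in check by taking away its E protein partners, and Mef2 factors act with it on contractile and fusion genes.

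All libraries were bulk RNA-seq. The regeneration set held tibialis anterior (TA) muscle of C57BL/6J mice, described in the study's methods as male, on day 0 and on days 1, 3, 5 and 10 after cardiotoxin (CTX), a venom protein that destroys fibres while satellite cells survive. The methods name saline as the control, and whether day 0 was untouched or given saline is not settled here. The cell set held C2C12, a mouse myoblast line, labelled CTRL or Cas9M3, in growth medium (GM, day 0) or on day 3 of serum withdrawal (DM3). Cas9M3 cells were puromycin-selected stable lines that carry a lentiviral dCas9-KRAB repressor, driven by the human ubiquitin C promoter, with guides to the Mettl3 promoter. The series text calls them knockout cells, but the construct represses and does not cut. What the CTRL line carries is not given in the sources used here. Each group had 2 libraries, 10 from muscle and 8 from cells, and no label says that they came from separate animals or cultures, so every p below measures only the spread between these libraries. The other 8 libraries of the 26 in the series, of cells overexpressing Mettl3 or GFP, were not analysed here.

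Values are FPKM, which scales reads to gene length and by a factor for each library. Levels of the 4 genes can thus be set side by side within a library. Low values stepped by whole reads, which placed the depth at about 14100000 to 18800000 reads on genes per muscle library and 14300000 to 29600000 per cell library. A single read on 1 kb of exon thus added 0.0494 to 0.0818 FPKM in muscle and 0.0314 to 0.103 FPKM in cells. Xist, which marks the inactive X, stood at 5.77 to 10.0 FPKM in 5 muscle libraries (both of day 0, both of day 10 and replicate 2 of day 3) and at no more than 0.152 FPKM in the other 5, where all 4 Y-linked genes examined were at 0.626 FPKM or more. The 5 libraries with high Xist go against the male animals that the methods name, and results are also given with a term for Xist. Days 0 and 10 were all high and days 1 and 5 all low, so only day 3 held both kinds. The term is thus estimated from the day 3 libraries alone. Days 0 and 10 do not differ in Xist state, nor do days 1 and 5. Between days 0 or 10 and days 1 or 5, Xist state cannot be told apart from day. In cells, ribosomal RNA genes took 0.541% to 0.726% of the reads in replicate 1 of each group and 8.42% to 29.5% in replicate 2. Mettl3 stood at 4.70 and 5.65 FPKM in CTRL and 0.331 and 0.118 in Cas9M3 in GM, and at 4.68 and 5.15 against 0.148 and 0.0805 on DM3, so all 4 Cas9M3 libraries were below CTRL. The log2 difference was -4.10 ± 0.40 (SE) in GM (adjusted p = 0.188, limma) and -4.56 on DM3 (adjusted p = 0.0187).

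On GRCm38 with GENCODE M21, each member is a protein-coding gene with 1 transcript of 3 exons and no overlapping gene. Myf5 (ENSMUSG00000000435) lies on the minus strand at chr10:107482908-107486134 and Myf6 (ENSMUSG00000035923) on the same strand at chr10:107492853-107494737, with 6719 bases between them. Myod1 (ENSMUSG00000009471) is at chr7:46376474-46379099 and Myog (ENSMUSG00000026459) at chr1:134289989-134292548, both on the plus strand. The exons add up to 2083 bases in Myf5, 1861 in Myod1, 1495 in Myog and 1263 in Myf6.

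RefSeq promoter sequence on GRCm38.p6 matched 2 of the 4 members, Myog and Myf5, and none was matched for Myod1 and Myf6. The 250 bases before each RefSeq start are shown 5′ to 3′ on the gene's strand, because both genes rose together on day 3 while their own binding letters are spread unequally between them, and capitals mark every E-box CANNTG.
Myog, chr1:134289754-134290003, plus strand: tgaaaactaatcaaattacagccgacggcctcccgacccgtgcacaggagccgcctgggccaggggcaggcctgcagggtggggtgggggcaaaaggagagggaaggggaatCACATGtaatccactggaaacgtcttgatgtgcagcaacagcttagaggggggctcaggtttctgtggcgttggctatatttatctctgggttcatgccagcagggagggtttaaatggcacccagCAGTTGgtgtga
Myf5, chr10:107486135-107486384, minus strand: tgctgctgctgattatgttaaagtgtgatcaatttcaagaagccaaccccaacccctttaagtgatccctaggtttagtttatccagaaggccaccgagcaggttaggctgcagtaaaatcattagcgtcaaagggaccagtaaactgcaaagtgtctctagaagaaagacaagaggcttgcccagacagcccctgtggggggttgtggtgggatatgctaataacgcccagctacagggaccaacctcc
The Myog window holds 2 E-boxes, CACATG at 138 to 133 bases and CAGTTG at 12 to 7 bases before the RefSeq start, whereas the Myf5 window holds 0. CANNTG reads the same on both strands, so each place was counted once. Of 32807 RefSeq windows of this length, 66.2% hold at least 1 E-box and 31.8% at least 2. CAGCTG, one form of CANNTG, is in neither window and in 13.0% of all windows. The GENCODE start of Myog lies 15 bases before the RefSeq start, so the second E-box falls inside the first GENCODE exon, while the 2 annotations agree at Myf5. The letters describe the windows only.

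Muscle regeneration was sampled to follow the repair programme day by day, and the summed level of the family was highest on day 3. Myog, Myod1 and Myf5 were all above their day 0 levels on day 3, by 26.6, 4.84 and 3.68 times, whereas Myf6 was not. Myog had passed the test on day 1, Myog and Myf5 were still above day 0 on day 5, and no member passed the test between day 10 and day 0. Since these are whole muscles, fewer cells of a type and less RNA per cell cannot be told apart in any of these values.

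**Figure D1:**
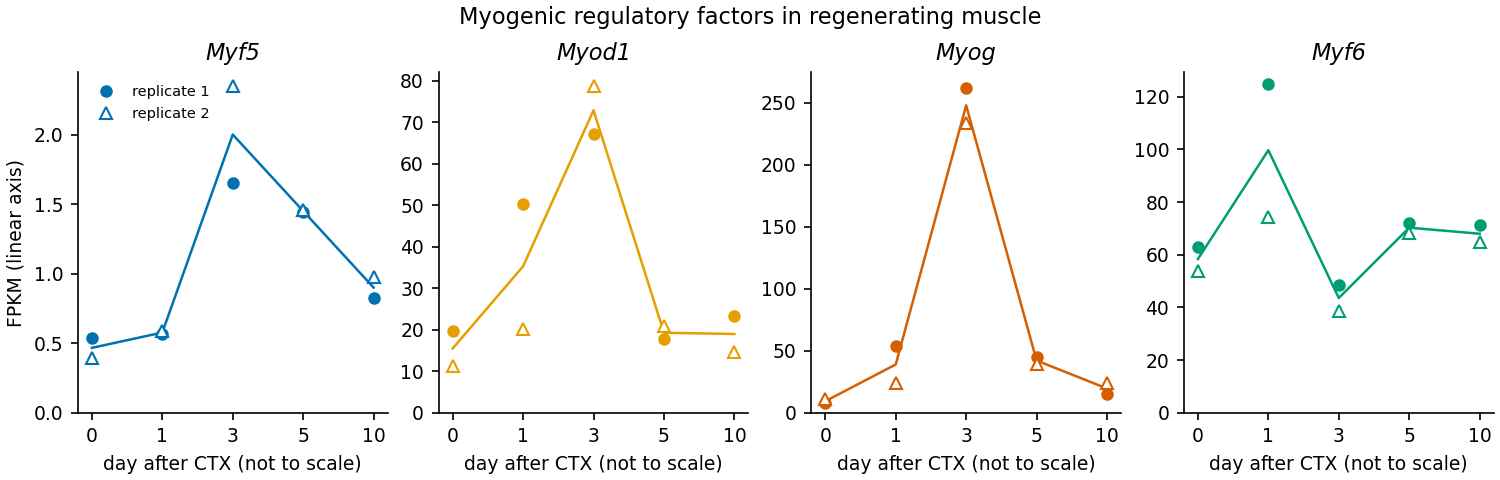
FPKM (linear axis, a separate scale for each gene) of the 4 factors in each muscle library, by day after CTX, with filled circles for replicate 1, open triangles for replicate 2 and a line through the means. Myog, Myod1 and Myf5 are highest on day 3 in both libraries, while Myf6 is lowest there and highest on day 1.

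Myf5, the earliest factor of the lineage in the embryo, was the scarcest member in muscle. It stood at 0.540 and 0.395 FPKM on day 0, 0.570 and 0.585 on day 1, 1.65 and 2.35 on day 3, 1.44 and 1.46 on day 5 and, by day 10, 0.823 and 0.977. The day 0 values rest on about 14 and 11 reads and the day 3 values on about 68 and 99. No library of days 3, 5 or 10 overlapped day 0 or day 1. In the limma fit across all genes, Myf5 rose by 1.88 ± 0.24 (SE) on the log2 scale from day 0 to day 3 (adjusted p = 0.000853) and by 1.61 from day 1 to day 3 (adjusted p = 0.00429). It was 1.46 above day 0 on day 5 (adjusted p = 0.0125) and fell by 1.06 from day 3 to day 10 (adjusted p = 0.0119). The difference of day 5 from day 3 was -0.42 (adjusted p = 0.295), and that of day 10 from day 0 was 0.83 (unadjusted p = 0.00954, adjusted p = 0.404).

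Myod1, which commits cells to the lineage and is induced when satellite cells activate, stood at 19.7 and 11.3 FPKM on day 0, 50.3 and 20.2 on day 1, 67.1 and 78.7 on day 3, 17.7 and 20.9 on day 5 and, by day 10, 23.3 and 14.7. Both day 3 libraries lay above every other one, while days 0, 5 and 10 overlapped. The change from day 0 to day 3 was 2.28 ± 0.45 (SE) on the log2 scale (adjusted p = 0.00468, limma), and the change from day 3 was -1.91 to day 5 (adjusted p = 0.0331) and -1.97 to day 10 (adjusted p = 0.0117). On day 1 the 2 libraries differed 50.3 to 20.2, and neither the step from day 0 (1.09, adjusted p = 0.167) nor the step to day 3 (1.18, adjusted p = 0.0793) passed the test.

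Myog, the factor of terminal differentiation, had the widest range of the 4. It stood at 7.73 and 11 FPKM on day 0, 54.1 and 23.9 on day 1, 262 and 234 on day 3, 45.4 and 39.1 on day 5 and, by day 10, 15.1 and 24.1. Every later library lay above both day 0 libraries, and those of day 3 lay above all others. The log2 change from day 0 was 1.95 ± 0.39 (SE) at day 1 (adjusted p = 0.0361, limma), 4.73 at day 3 (adjusted p = 0.000285) and 2.18 at day 5 (adjusted p = 0.014). It rose by 2.78 from day 1 to day 3 (adjusted p = 0.0037) and fell by 2.55 from day 3 to day 5 (adjusted p = 0.00924) and fell by 3.69 to day 10 (adjusted p = 0.000745). By day 10 it was 1.04 above day 0, which did not pass the test (unadjusted p = 0.0287, adjusted p = 0.453, limma).

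Myf6, which was the most abundant member of muscle on day 0, followed another course. It stood at 62.9 and 53.8 FPKM on day 0, 125 and 74.4 on day 1, 48.4 and 38.8 on day 3, 72.2 and 68.3 on day 5 and, by day 10, 71.2 and 64.9. Both day 3 libraries lay below every other one, and both day 1 libraries lay above every other one. The fall of 1.15 ± 0.24 (SE) on the log2 scale from day 1 to day 3 passed the test (adjusted p = 0.012, limma). The changes from day 0 did not, with day 1 at 0.73 (adjusted p = 0.109) and day 3 at -0.43 (adjusted p = 0.182, 95% confidence interval -0.99 to 0.14).

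Read against all 16753 genes tested, 1 of 4 members was called from day 0 to day 1, where 6.0% of genes were called, and 3 of 4 from day 0 to day 3, where 48.8% were. The count was 2 of 4 on day 5 against day 0 (25.5% of genes) and 0 of 4 on day 10 (0.00597% of genes, with 2 members at an unadjusted p under 0.05 in limma). It was 3 of 4 from day 1 to day 3 (31.1%), 2 of 4 from day 3 to day 5 (12.7%) and 3 of 4 from day 3 to day 10 (37.9%). Of the remaining pairs of days, 1 of 4 members, Myf5, was called from day 1 to day 5 (8.37% of genes, log2 change 1.2, adjusted p = 0.0328), and 0 of 4 were called from day 1 to day 10 (3.75%) and from day 5 to day 10 (0.281%), with 1 and 2 members at an unadjusted p under 0.05 in limma. Comparisons with one day share the libraries of that day.

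The calls from day 0 to day 3 of Myf5, Myod1 and Myog held without each library in turn and with a term for Xist. In each comparison with day 3, the Xist term uses only the day 3 library that shares the other day's Xist state. It gives the same change as leaving out the other day 3 library, so it is no separate check. Other calls were less firm. Nearly every loss below came in a fit that also called fewer genes over the whole table than the main fit did. The exception was Myf5 from day 1 to day 5 without replicate 2 of day 1. With the Xist term, no member was called from day 0 to day 1 or to day 5. None was called from day 1 or day 3 to day 5 either, and each change that lost its call kept its direction. Of all 16753 genes tested, that fit called 0 from day 0 to day 1, from day 0 to day 5 and from day 3 to day 5. It called 345 from day 1 to day 5. From day 0, Myog was then 1.79 ± 0.73 (SE) on day 1 and 2.02 ± 0.73 on day 5 and Myf5 was 1.95 ± 0.38 on day 5. From day 3 to day 5, Myod1 was -1.80 ± 0.59 and Myog -2.64 ± 0.52, and from day 1 to day 5 Myf5 was 1.2 ± 0.22 (adjusted p = 0.0553). The day 1 call of Myog was lost without either library of days 0, 3 or 5 or replicate 1 of day 1 (adjusted p 0.0629 to 0.191), and without replicate 2 of day 1 Myod1 and Myf6 were called as well (1.74 and 1.10, adjusted p = 0.0396 and 0.0218). Without replicate 1 of day 0 or either library of day 5, Myog and Myf5 were no longer called on day 5 (adjusted p 0.0521 to 0.0943), and without any library of day 3 or day 5 neither Myod1 nor Myog was called between those days (adjusted p 0.0536 to 0.178). The fall of Myf6 from day 1 to day 3 was lost without replicate 2 of day 3 (adjusted p = 0.0864), with the Xist term (0.0875) and with only the groups compared (0.0883), while the rise of Myod1 over those days was called without replicate 1 of day 1 (1.84, adjusted p = 0.0224). From day 3 to day 10, Myf5 was lost without replicate 2 of day 3 or replicate 1 of day 10 (adjusted p = 0.0964 and 0.07) and with only the groups compared (0.0588), and Myod1 without replicate 2 of day 3 or replicate 2 of day 10 (adjusted p = 0.067 and 0.0554). The Myf5 call from day 1 to day 5 was lost without either library of days 1, 3 or 5 (adjusted p 0.0503 to 0.201), with no filter (0.062) and with only the groups compared (0.0997). Without either library of day 1, Myf6 was called higher on days 5 and 10 than on day 3 (0.70 and 0.65, adjusted p 0.0156 to 0.0292). Without replicate 2 of day 1, Myf6 was also called lower on days 5 and 10 than on day 1 (-0.83 and -0.88, adjusted p = 0.0389 and 0.0427) and Myog lower on day 10 (-1.5, adjusted p = 0.0442).

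The make-up of the family changed with its size. Summed over the 4 genes, the level was 90.9 and 76.5 FPKM on day 0 and 379 and 354 FPKM on day 3. Myf6 made up 69.2% and 70.4% of this sum on day 0 and 12.7% and 11% on day 3, whereas Myog went from 8.51% and 14.3% to 69.1% and 66.1%. By day 10, Myf6 again held 64.5% and 62.0%. The share of Myod1 stayed between 13.0% and 22.2% in all 10 libraries. The ratio of Myog to Myod1 was 0.392 and 0.970 on day 0, 1.08 and 1.18 on day 1, 3.91 and 2.97 on day 3, 2.56 and 1.87 on day 5 and, by day 10, 0.649 and 1.63, so the day 3 libraries lay above all others.

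**Figure D2:**
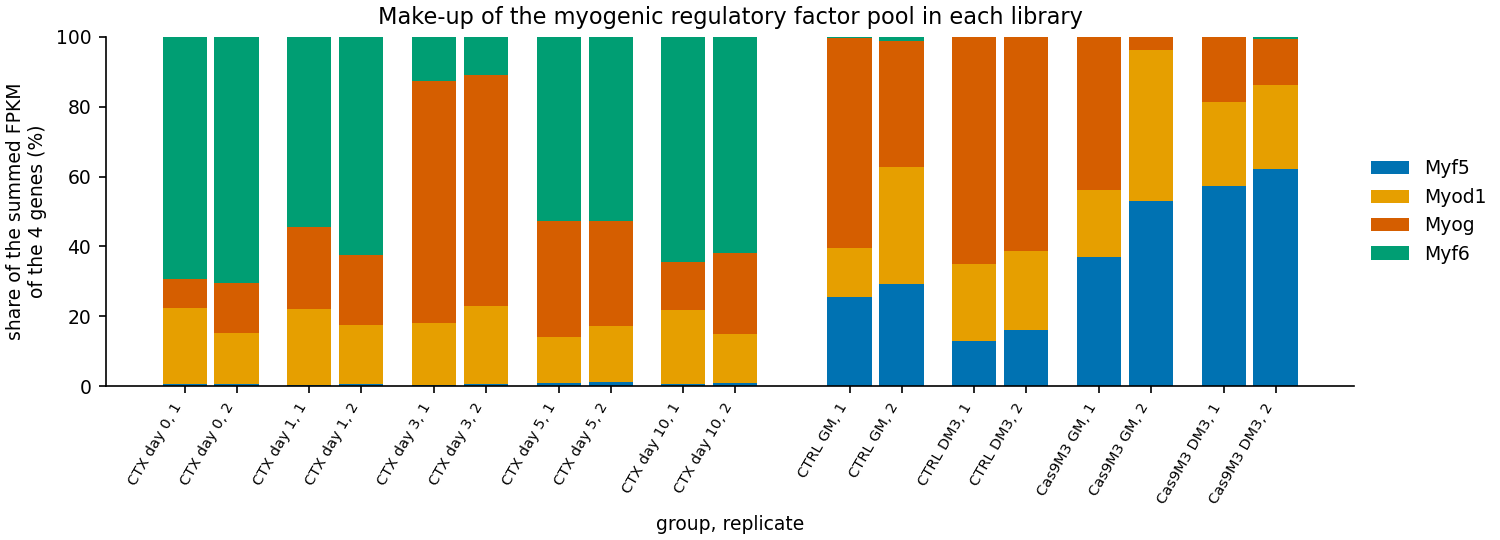
Share of each factor (%) in the summed FPKM of the 4 genes, with 1 stacked bar for each library of the 5 CTX days and the 4 cell groups, named by group and replicate. Myf6 makes up 69.2% and 70.4% on day 0 and Myog 69.1% and 66.1% on day 3, while in cells Myog makes up 64.7% and 61.0% in CTRL on DM3 and 18.5% and 13.1% in Cas9M3.

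Other cell types moved over the same days. The summed level of 8 macrophage markers was 22.8 and 42.6 FPKM at day 0, 117 and 129 at day 1, 648 and 616 at day 3, 220 and 281 at day 5 and 40.8 and 114 at day 10, and 7 of the 8 were called higher on day 3 than on day 0. The 8 myofibre markers summed to 32142 and 24811 FPKM on day 0 and to 7733 and 4726 on day 3, all 8 of them called lower (4 with quantile normalization). All 6 cycling markers were called higher on day 3 and summed to 28 and 14 FPKM against 2.02 and 4.45 on day 0. The 5 fibroadipogenic markers summed to 65.9 and 125 FPKM on day 0 and 440 and 484 on day 3, with 2 higher, and of 5 endothelial markers 3 were lower, with sums of 60.2 and 81.6 and then 43.4 and 33.6. Of 5 neutrophil markers, 4 were tested and 1 was higher, with sums of 1.58 to 5.11 FPKM on day 0 and 7.17 to 8.29 on day 3. No marker of macrophages, myofibres, cycling, fibroadipogenic or endothelial cells was at 0 in both libraries of a day, whereas 2 of the neutrophil markers were on day 0. The part of these shifts in the levels of the 4 factors was not tested.

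Satellite cells, the stem cells that carry the factors into repair, were measured by 5 markers, of which 3 were tested and 2 rose from day 0 to day 3, where 24.5% of all genes tested did. They were Pax7 and Cdh15, and Cdh15 is on the target list too. Sdc4, the third, stood at 18.8 and 14.8 FPKM on day 0 and 13.1 and 10.2 on day 3 (-0.52, adjusted p = 0.0919, limma). Calcr and Chrdl2 were under the filter, with means of 0.21 and 0.296 FPKM on day 0 and 0.0641 and 0.151 on day 3. Pax7, which marks satellite cells and acts above Myf5, stood at 0.836 and 0.843 FPKM on day 0, 0.417 and 0.740 on day 1, and reached 2.21 and 2.24 by day 3, a rise of 1.31 on the log2 scale from day 0 (adjusted p = 0.00398, limma). Its day 3 libraries were above all others, as were those of Myf5. Among the other upstream regulators, the transcriptional coactivator Eya2 was higher on day 3 than on day 0 (1.14, adjusted p = 0.0494, limma, and 0.151 with quantile normalization) and its relative Eya1 was lower (-1.41, adjusted p = 0.0122).

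Between day 0 and day 3, 24.5% of all genes tested were called higher and 24.3% lower, which stands beside the counts of partners and repressors. Of 3 E protein genes, Tcf12 rose by 0.80 on the log2 scale (adjusted p = 0.00815, limma) and Tcf3 by 0.53 (adjusted p = 0.0359), and Tcf4 was not called. That count was 0 without replicate 1 of day 0, 3 without replicate 2 of day 0 and 1 without either library of day 3 or with the Xist term. Of 12 repressor genes tested, 5 were called higher and 1 lower, with a median change of 0.58 over the list and 0.01 over all genes tested. Mdfi, an inhibitor of the family, rose by 3.27 (adjusted p = 0.00083) from 0.337 and 0.654 FPKM to 4.85 and 6.14. Msc, a bHLH repressor of Myod1 activity, rose by 2.90 (adjusted p = 0.00189), Heyl, a Notch target, by 1.84, Id2 by 1.72 and Twist1 by 1.65, while Bhlhe40 fell by 1.5 (adjusted p = 0.0247). The call of Bhlhe40 was lost without replicate 1 of day 0, without either library of day 3 and with the Xist term. Id1 and Id3 were not called on day 3. Of the 4 Mef2 and Srf genes, Mef2a rose by 0.94 (adjusted p = 0.00278), whereas Mef2c fell by 1.04 (adjusted p = 0.0017) and Srf by 0.58 (adjusted p = 0.0111, and 0.104 with quantile normalization).

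Of 23 genes listed as targets of the family, 14 were called higher (24.5% of all genes tested were) and 6 lower (24.3% were) between day 0 and day 3, and the median was 2.0 on the log2 scale against 0.01 over all genes tested. The highest changes were those of Chrng, the fetal acetylcholine receptor subunit (7.10 ± 0.86 SE, adjusted p = 0.000701, limma), and of the fusion genes Mymx (6.86) and Mymk (6.76). Mymk, the fusogen myomaker, stood at 0.637 and 3.57 FPKM on day 0 and 132 and 241 on day 3, and Myh3, the embryonic myosin, at 3.91 and 8.57 and then 398 and 733. The 6 called lower were Ckm, Tnnt3, Tnnc2, Myl1, Acta1 and Mylpf, genes of the adult fibre, but with quantile normalization none of them was called lower and Acta1 (0.09), Myl1 (0.65, adjusted p = 0.0336, limma) and Mylpf (0.64, adjusted p = 0.0404) changed sign. Ckm, the muscle creatine kinase, fell from 7577 and 6054 FPKM to 1621 and 1013 (-2.40, adjusted p = 0.000817, against -0.36 and 0.213 with quantile normalization). By day 5 the list had 6 genes called above day 0 and 0 below, where 25.5% of all genes tested were called in either direction. With the Xist term that count was 0, as was the count over all genes tested, and it was 3 with only the groups compared. It also fell without replicate 1 of day 0 or without either library of day 5. Without replicate 2 of day 3, or without replicate 1 of day 0, 10 were higher on day 3, with 6 lower. The calls lower numbered 0 with quantile normalization (17 higher, and 20 of 23 changes above 0 in place of 16), 1 with no filter (13 higher) and 2 with only the groups compared (13 higher).

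In C2C12 cells, serum withdrawal is known to raise Myog as myoblasts exit the cycle and fuse, and the cell set asks how the repression of Mettl3 bears on that step. In CTRL cells, Myod1 rose 11.7 times from GM to DM3, with Myog and Myf5 higher in both DM3 libraries than in either GM library. On DM3, Myod1 was 6.94 times lower in Cas9M3 than in CTRL, and Myog was at 2.28 and 3.5 FPKM where CTRL had 83.3 and 89.1. Between Cas9M3 and CTRL in GM no member was called. Myf6 was near 0 throughout. For Mettl3 knockdown cells after induction of differentiation, the paper reports the other direction from these DM3 values. Genes tied to fusion were higher by RT-qPCR, and blots and staining gave more myosin heavy chain and more fusion. Why those measures and the values here differ was not tested.

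**Figure D3:**
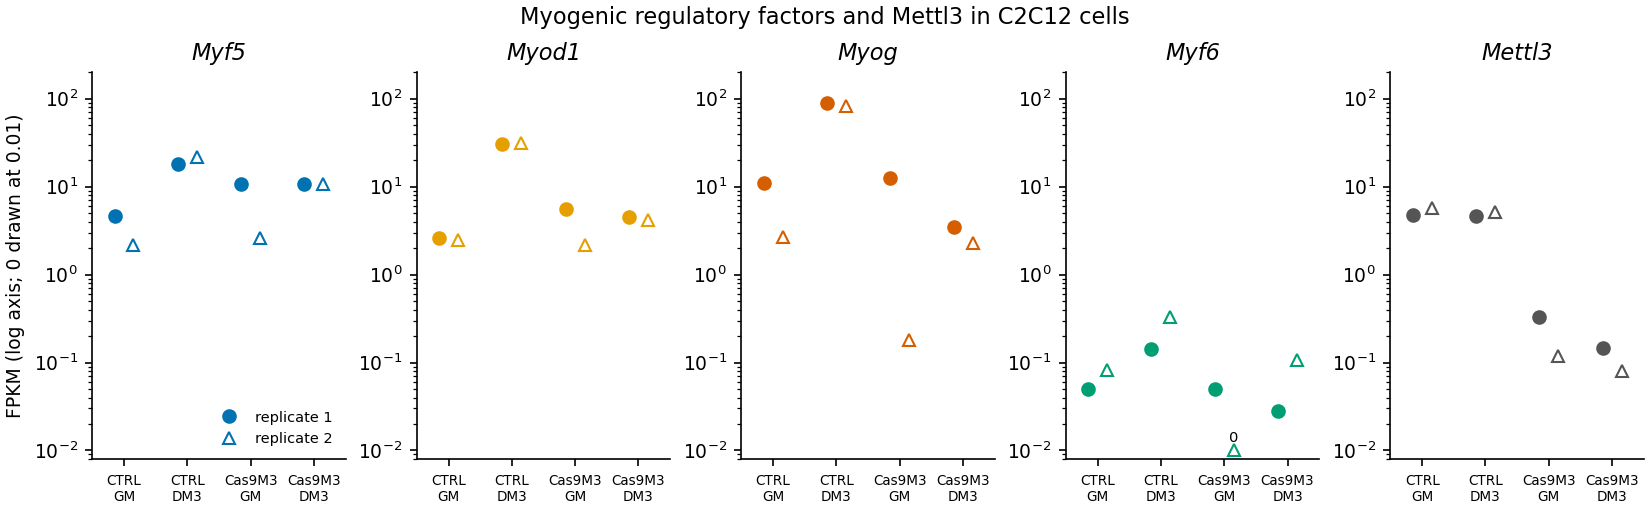
FPKM (log axis, with 0 drawn at 0.01) of the 4 factors and of Mettl3 in each C2C12 library, with filled circles for replicate 1 and open triangles for replicate 2, for CTRL and Cas9M3 in GM and on DM3. Myog and Myod1 are high in the 2 CTRL libraries on DM3 only, and Myog spans 0.182 to 12.7 in Cas9M3 in GM.

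Myod1 stood at 2.59 and 2.50 FPKM in CTRL in GM, 30.5 and 31.2 in CTRL on DM3, 5.58 and 2.17 in Cas9M3 in GM and 4.55 and 4.17 in Cas9M3 on DM3. The CTRL libraries on DM3 were far above the other 6, and the Cas9M3 libraries of GM spanned those of DM3 and of CTRL in GM. In the limma fit the rise in CTRL was 3.55 ± 0.41 (SE) on the log2 scale (adjusted p = 0.026), and the difference of Cas9M3 from CTRL on DM3 was -2.80 ± 0.41 (adjusted p = 0.0337). Within replicate numbers that difference was -2.72 and -2.87. From GM to DM3 in Cas9M3 the change was 0.31 (adjusted p = 0.863, 95% confidence interval -0.67 to 1.29), and in GM Cas9M3 differed from CTRL by 0.44 (adjusted p = 0.777, interval -0.54 to 1.42). Tested directly, the effect of Cas9M3 on DM3 differed from that in GM by -3.24 ± 0.57 (unadjusted p = 0.00111, adjusted p = 0.266).

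Myog stood at 11.1 and 2.70 FPKM in CTRL in GM, 89.1 and 83.3 in CTRL on DM3, 12.7 and 0.182 in Cas9M3 in GM and 3.5 and 2.28 in Cas9M3 on DM3. On DM3 the 2 lines did not overlap, and within replicate numbers the log2 difference of Cas9M3 from CTRL was -4.63 and -5.13. The difference of -4.88 ± 1.66 (SE) missed the threshold (adjusted p = 0.197, limma), as did the rise in CTRL of 3.95 ± 1.66 (adjusted p = 0.28). The SE is estimated over all 4 groups, including the GM pairs at 11.1 and 2.7 and at 12.7 and 0.182 FPKM. With the DM3 libraries fitted alone, the difference on DM3 had an adjusted p of 0.00212 (limma). That fit called 2637 of all 13824 genes tested, against 274 in the main fit. Without either Cas9M3 library of GM the difference stayed at -4.88. In Cas9M3 the change from GM to DM3 was 0.62 (95% confidence interval -3.40 to 4.64), and in GM Cas9M3 differed from CTRL by -1.56 (-5.57 to 2.46), with adjusted p of 0.952 and 0.808.

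Myf5 stood at 4.67 and 2.19 FPKM in CTRL in GM, 17.9 and 21.8 in CTRL on DM3, 10.7 and 2.64 in Cas9M3 in GM and 10.8 and 10.8 in Cas9M3 on DM3. It was higher in CTRL on DM3 than in any other group, and the Cas9M3 libraries on DM3 were level with replicate 1 of Cas9M3 in GM. The rise in CTRL was 2.59 ± 0.65 (SE, adjusted p = 0.131, limma), and the difference of Cas9M3 from CTRL on DM3 was -0.87 (adjusted p = 0.599, 95% confidence interval -2.45 to 0.71). Without replicate 1 of CTRL in GM, the rise in CTRL was called (3.12, adjusted p = 0.0365). The DM3 libraries fitted alone gave an adjusted p of 0.02 (limma) for the difference between lines, in the fit that called 2637 of all 13824 genes tested. In Cas9M3 the change from GM to DM3 was 1.0 (95% confidence interval -0.58 to 2.58, adjusted p = 0.649), and in GM Cas9M3 differed from CTRL by 0.72 (-0.86 to 2.30, adjusted p = 0.774).

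Myf6 had 0.0498 and 0.0820 FPKM in CTRL in GM, 0.144 and 0.333 in CTRL on DM3, 0.0502 and 0 in Cas9M3 in GM and 0.0284 and 0.108 in Cas9M3 on DM3. These values are about 0 to 7 reads a library, so no change of Myf6 in cells was detectable at this depth. In muscle the same gene was never below 38.8 FPKM.

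Of the 3 members tested in cells, 1 was called in CTRL from GM to DM3, where 1.14% of 13824 genes were called, and 1 between lines on DM3, where 1.98% were. In both counts the member was Myod1. None was called from GM to DM3 in Cas9M3 (0.0289% of genes), between lines in GM (0% of genes) or for the difference of the Cas9M3 effect between DM3 and GM (0% of genes), with 0, 0 and 1 members at an unadjusted p under 0.05 in limma. The replicate number as a block changed none of these member calls but raised the genes called over the whole table from 158 to 411 in CTRL and from 274 to 505 between lines on DM3. The 2 comparisons that call Myod1 share the CTRL libraries of DM3. The call of the rise in CTRL was lost without replicate 2 of CTRL in GM or any 1 library of DM3. That of the difference on DM3 was lost without any of its 4 libraries. With 1 library left out, the rise was 3.53 to 3.57 and the difference -2.86 to -2.73. Leaving out a library of DM3 emptied the calls of the whole table in both comparisons, so those losses are not particular to Myod1. The same holds for such losses of the list genes below.

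**Figure D4:**
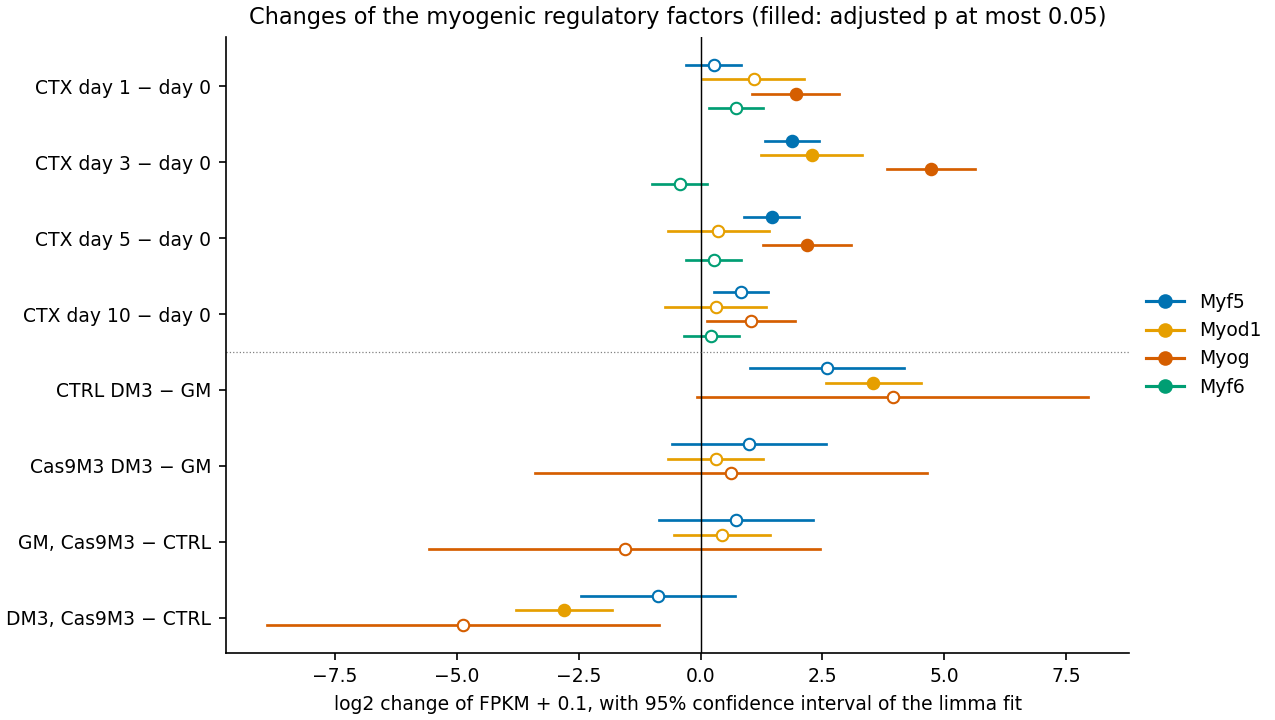
Log2 change of FPKM + 0.1 for each factor, as a point with the 95% confidence interval of the limma fit, for the 4 CTX days against day 0 (above the dotted line) and for 4 comparisons of C2C12 cells (below it). Filled points have an adjusted p of at most 0.05, and in cells only the 2 values of Myod1, 3.55 and -2.80, are filled.

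The pool of factors differed in kind as well as in size. Its sum was 18.4 and 7.47 FPKM in CTRL in GM, 138 and 137 in CTRL on DM3, 29.1 and 4.99 in Cas9M3 in GM and 18.9 and 17.3 in Cas9M3 on DM3. On DM3, Myog made up 64.7% and 61.0% of the sum in CTRL but 18.5% and 13.1% in Cas9M3, where Myf5 made up 57.2% and 62.2%. The share of Myod1 on DM3 was 22.1% and 22.8% in CTRL and 24.1% and 24.0% in Cas9M3. The ratio of Myog to Myod1 was 2.92 and 2.67 in CTRL and 0.770 and 0.546 in Cas9M3.

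In GM, the 2 replicates of each line stood apart in the same genes. Each of the 3 members above 0.5 FPKM was higher in replicate 1 than in replicate 2 in both lines, with median differences of 1.06 on the log2 scale in CTRL and 1.98 in Cas9M3. The target genes were higher in replicate 1 in 19 of 21 genes in CTRL (median 1.35) and 22 of 22 in Cas9M3 (median 2.32), whereas the 6 cycling markers were lower in replicate 1 in both lines. Over all genes the median difference was -0.02 and -0.03. The part of this split in the comparisons with GM was not tested beyond leaving out each library.

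None of the 3 E protein genes was called from GM to DM3 in CTRL or between lines on DM3, with Tcf12 at 1.09 in CTRL from GM to DM3 (adjusted p = 0.0835, limma) and -1.0 between lines on DM3 (adjusted p = 0.0798). With the replicate block Tcf12 was called in both (adjusted p = 0.0391 and 0.0394). Of 8 repressor genes tested, Id1, an Id protein that sequesters E proteins, was the only one called without the block, and with it 3 were lower in CTRL (Id1, Id3 and Twist2) and 2 higher between lines (Id1 and Twist2). Id1 fell by 2.89 ± 0.29 (SE) in CTRL (adjusted p = 0.0223) and was 1.72 higher in Cas9M3 than in CTRL on DM3 (adjusted p = 0.0484). Both calls were lost without any 1 library of DM3 (adjusted p 0.0947 to 0.429), the one in CTRL also with only the groups compared (0.201) and the one between lines also without either Cas9M3 library of GM (0.0502 and just above 0.05). The Id1 call between lines was also lost with no filter (adjusted p = 0.0562, limma) and with a pseudocount of 0.01 (0.0542). Id1 stood at 46.4 and 66.2 FPKM in CTRL in GM, 6.44 and 8.44 in CTRL on DM3, 57.6 and 86.8 in Cas9M3 in GM and 22.2 and 27.2 in Cas9M3 on DM3. Id3 had 33.5 and 46.6 FPKM in CTRL and 97.0 and 139 in Cas9M3 on DM3, a difference of 1.55 that was not called (adjusted p = 0.235). Mef2a alone of 3 Mef2 and Srf genes tested was called, 2.32 higher on DM3 in CTRL (adjusted p = 0.0317) and 1.70 lower in Cas9M3 than in CTRL on DM3 (adjusted p = 0.048). Both Mef2a calls were lost without any 1 library of DM3 (adjusted p 0.119 to 0.426) or without either Cas9M3 library of GM (0.0503 to 0.065), and the one in CTRL with only the groups compared (0.238). The Mef2a call between lines was also lost with no filter (adjusted p = 0.0562, limma) and with a pseudocount of 0.01 (0.0555). None of 4 upstream regulators tested was called, and Pax7 was at or below 0.0373 FPKM in every cell library.

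The 23 target genes all had higher fitted levels on DM3 than in GM in CTRL and lower ones in Cas9M3 than in CTRL on DM3. Both comparisons share the CTRL libraries of DM3, and the list was chosen with earlier results of these data known, so these counts are a description only. Of the 23 genes, 5 were called higher in CTRL (Actc1, Cdh15, Chrna1, Chrnb1 and Myl4), with a median of 3.5 on the log2 scale against -0.02 over all genes tested, of which 0.767% were called higher and 0.376% lower. Between lines on DM3, 6 were called lower in Cas9M3 (Actc1, Ckm, Chrnb1, Myl4, Tnnc1 and Tnnc2), with a median of -4.41 against -0.05 over all genes tested, of which 0.687% were called lower and 1.29% higher. Actc1, the cardiac actin that embryonic muscle uses, stood at 0.389 and 0.192 FPKM in CTRL in GM, 95.9 and 86.1 in CTRL on DM3, 1.16 and 0.101 in Cas9M3 in GM and 1.09 and 0.547 in Cas9M3 on DM3. Between lines it differed by -6.70 ± 0.84 (SE, adjusted p = 0.0262, limma). Mymk had 199 and 180 FPKM in CTRL and 4.58 and 3.47 in Cas9M3 on DM3 and missed the threshold (-5.53, adjusted p = 0.0838). With the replicate block 10 genes were called in CTRL and 13 between lines, and with only the groups compared 0 were called in CTRL and 22 between lines. Over all 13824 genes tested, the fit of only the groups compared called 0 in CTRL and 2637 between lines. Without any 1 library of DM3 the counts were 0 in both comparisons, and they were 16 in CTRL without replicate 1 of CTRL in GM, 1 without its replicate 2, and 17 between lines without either Cas9M3 library of GM. From GM to DM3 in Cas9M3, 0 of 23 were called, 10 were higher and the median was -0.04.

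**Figure D5:**
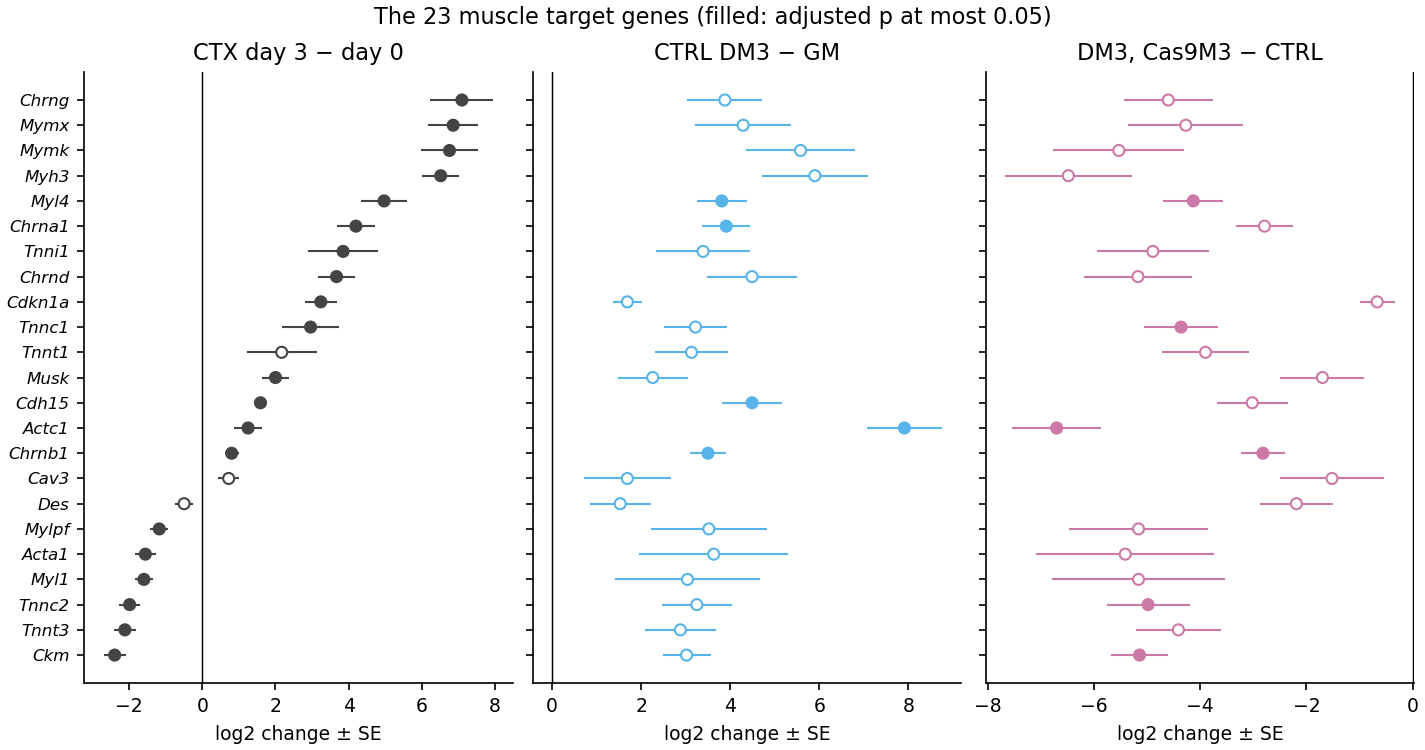
Log2 change ± SE of the 23 target genes, ordered by the first panel, on day 3 after CTX against day 0, in CTRL cells on DM3 against GM, and in Cas9M3 against CTRL on DM3; filled points have an adjusted p of at most 0.05. In muscle 14 are filled above 0 and 6 below, of which Acta1, Myl1 and Mylpf change sign with quantile normalization, while in cells all points lie above 0 in CTRL and below 0 between lines.

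Markers of immune and vessel cells were near 0 in C2C12. There, 4 of 8 macrophage markers were at 0 in both libraries of every group and 1 was tested, with sums of 0.848 to 6.56 FPKM, and of 5 neutrophil and 5 endothelial markers none reached the filter, with sums of at most 0.363 and 0.135 FPKM. The 6 cycling markers summed to 93.2 and 296 FPKM in CTRL in GM, 90.2 and 82.9 in CTRL on DM3, 144 and 220 in Cas9M3 in GM and 32.2 and 30.8 in Cas9M3 on DM3, with 0 of 6 called in any comparison in limma. The 5 fibroadipogenic markers were all tested, with 1 called lower in CTRL on DM3 than in GM. Of 8 myofibre markers, 6 were tested and none called (3 were lower between lines with the replicate block), and of 5 satellite cell markers 2 were tested and 1, which the target list also holds, was called higher in CTRL.

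The genes with the course most like each member were named by Pearson r over log2(FPKM + 0.1), as a description over libraries that share their scaling. Over the 10 muscle libraries and 14054 genes, they were Spg21 (r = 0.995), Dok1 (0.993) and Serp1 (0.991) for Myog, Fbxo17 (0.978), Hspb11 (0.966) and Abca5 (0.964) for Myod1, Cnp (0.989), Stac2 (0.987) and Mxra8 (0.98) for Myf5, and Cptp (0.958), Erp44 (0.955) and Gm15934 (0.948) for Myf6. Over the 8 cell libraries and 12421 genes, they were Hjv (0.994), Tmem182 (0.99) and Mb (0.99) for Myog, Actc1 (0.995), Cacng1 (0.991) and Frmpd1 (0.987) for Myod1, and Jph2 (0.981), Spry2 (0.978) and Best1 (0.978) for Myf5. No gene was among the first 3 in both tables for the same member.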

How the data were processed

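Bulk RNA-seq of TA muscle (10 libraries, 5 days) and of C2C12 cells (8 libraries, 4 groups) was analysed, with groups and replicate numbers taken from the labels. Per the study's methods, HISAT2 (mapping to GRCm38) and featureCounts (gene counts) came first, and the authors deposited FPKM values from the fpkm function of DESeq2, scaling each table separately. Counts were not used here, so limma took the place of the count test in the study's methods, and groups were compared only within a table. The values were not scaled by the total of reads on genes alone, which would give a larger step per read to a library with fewer reads. A read on 1 kb of exon added 0.0803 FPKM in replicate 1 of day 0, with 16770000 reads on genes. It added 0.0507 FPKM in replicate 1 of day 3, with 14320000. How far a rise of a few very abundant genes moves the other values was not tested.

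The filter kept any gene that reached 0.5 FPKM in 2 or more libraries, 16753 in muscle and 13824 in cells. FPKM plus 0.1 was taken to the log2 scale, which understates changes of low genes, and fitted with limma 3.58.1 (lmFit, eBayes with trend) in R 4.3.3, 1 fit per table over its groups, and p-values were adjusted by Benjamini-Hochberg over every gene in it. A call means an adjusted p no higher than 0.05. An exact permutation test of 2 libraries against 2 cannot give a two-sided p below 0.333. The fit was tested on simulated data.

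Depth was read from low values, of which 96.68% to 97.66% in muscle and 98.59% to 98.82% in cells were whole multiples of 1 read within 0.02, with GENCODE M21 exon lengths for 53360 of 53465 and 55227 of 55487 genes. Depth was used in no test. Python 3.11.15, pandas 2.3.3, numpy 2.4.6 and matplotlib 3.10.9 were used.

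The members and the lists of partners, repressors, upstream regulators, Mef2 and Srf genes, chromatin cofactors, targets and cell type markers were chosen with earlier results of these data known. The genes named are the members, Mettl3, Xist, genes of the partner, repressor, upstream, Mef2 and target lists that were called or moved most, the 3 genes most like each member with at least 1 FPKM in their highest group, and flanking genes. Others named with values (Id3, Pax7 in cells, Mymk and Tcf12 in cells, Actc1) were chosen after their values were seen.

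Replicate numbers were checked by the correlation of libraries' deviations from their group means. The 6 correlations in cells were 0.278 to 0.680, all above 0.1, so the numbers pair these libraries by that measure, and no source gives a reason. Alternatives were pseudocounts of 1 and 0.01, quantile normalization, median-ratio scaling, no filter, filtering at 1 FPKM, the replicate block, fitting the 2 groups of a comparison alone, a term for libraries with Xist above 1 FPKM, and each library left out in turn. Median-ratio scaling left the data almost unchanged, so it checks little. It called 158 genes in CTRL from GM to DM3, as the main fit did, and 8181 against 8179 from day 0 to day 3. Its 55 member values all held and are part of the counts given below. The same alternatives for list counts were chosen after seeing the data. No 2 libraries held identical values. A result of the list of upstream regulators in muscle is not reported here.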

Additional observations from a re-analysis of the deposited data

How the results depend on the processing

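Over the members' log2 changes, 454 values under other settings kept their direction and their side of the threshold, 15 lost a call, 5 gained one and 3 changed sign, and with 1 library left out the numbers were 454, 41, 13 and 12. The members called from day 0 to day 1 (1 in the report) were 0 with no filter, with only the groups compared and with the Xist term. With the Xist term they were 0 from day 0 to day 5 and 0 from day 3 to day 5 (2 in the report for each), each lost change keeping its direction, and with no filter 1 from day 3 to day 5. With the Xist term, 0 of all 16753 genes tested were called from day 0 to day 1, from day 0 to day 5 or from day 3 to day 5. With only the groups compared, the members called were 0 in CTRL from GM to DM3 and 3 between lines on DM3 (1 in the report for each). Over all 13824 genes tested, that setting called 0 and 2637, against 158 and 274 in the main fit. With 1 library left out, the members called ranged from 0 to 3 on day 1 and 0 to 2 on day 5 against day 0, 2 to 4 from day 1 to day 3, 0 to 3 from day 3 to day 5, 1 to 4 from day 3 to day 10, 0 to 2 in CTRL and 0 to 2 between lines on DM3, and stayed at 3 from day 0 to day 3 and at 0 on day 10 against day 0, in Cas9M3, between lines in GM and for the difference of effects. The cause of these shifts was not tested beyond the fewer libraries or genes each setting uses. In muscle, each setting that lowered a member count also called fewer genes over the whole table than the main fit. From day 0 to day 1 with only the groups compared, 0 of all genes tested were called, against 1005 in the main fit.

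Changes of sign were all in values that were not called. With the Xist term Myf6 was -0.05 on day 5 against day 0 and 0.27 from day 5 to day 10, and with a pseudocount of 1 Myog was -0.07 in Cas9M3 from GM to DM3. With 1 library left out, Myod1 ranged from -0.03 to 0.76 on day 5 and from -0.09 to 0.71 on day 10 against day 0 and from -0.38 to 0.28 from day 5 to day 10, Myog from -0.36 to 0.82 from day 1 to day 5, and Myf6 from -0.11 to 0.02 from day 5 to day 10. In cells Myod1 ranged from -0.35 to 0.98 and Myog from -2.13 to 3.37 in Cas9M3 from GM to DM3, and between lines in GM Myf5 ranged from -0.27 to 1.71, Myod1 from -0.22 to 1.10 and Myog from -4.31 to 1.2.

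In muscle the replicate numbers do not pair the libraries (correlations -0.019 to 0.211). There the replicate block added calls of Myf6 from day 3 to day 5 (0.70, adjusted p = 0.048, limma) and to day 10 (0.65, adjusted p = 0.0276). Quantile normalization moved the median change of all genes from 0.008 to -0.116 between day 0 and day 3, and over all 9 settings the change of Myf5 over those days ranged from 1.02 to 2.12, Myod1 from 2.21 to 2.63 and Myog from 4.61 to 5.21. In cells the replicate block changed no member call. Depth limits Myf5 in muscle and Myf6 in cells, which rest on few reads. The libraries of a group number 2, and the lone library left when 1 is dropped is assumed to vary like the other groups.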

Other observations

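Levels of the genes beside the members are given as ranges, and their courses were not compared. In muscle, Kcnc1, 17398 bases beyond Myod1, ranged from 4.66 to 28.2 FPKM, and it was at 0 to 0.00386 FPKM in cells, where Myod1 reached 31.2 FPKM. Adora1, 54558 bases from Myog, ranged from 10.4 to 49.6 FPKM in muscle and from 0 to 0.183 in cells, and Ppfia4, 4235 bases beyond Myog, from 0.452 to 30.7 and from 0.0158 to 1.57. Lin7a and Ptprq, on either side of the Myf5 and Myf6 pair, stayed at or below 0.299 FPKM in muscle. Myf5 and Myf6, 6719 bases apart on one strand, had opposite order in the 2 systems, with Myf6 16.5 to 219 times Myf5 in the muscle libraries and at most 0.0375 times Myf5 in the cell libraries.

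Of 13 chromatin cofactors of the family, 3 were called higher on day 3 than on day 0 in limma, Hdac1 (1.18), Suv39h1 (0.99) and Ezh2 (0.74), and 4 were called lower, Kat2b (-1.84), Hdac4 (-1.44), Carm1 (-0.94) and Smarcd3 (-0.91). Of all genes tested, 24.5% were called higher and 24.3% lower. Hdac1, Suv39h1, Ezh2 and Hdac4 take part in gene silencing, and Kat2b and Carm1 are coactivators. The median change of the list was -0.34 against 0.01 over all genes tested. In cells 0 of the 13 were called in any of the 5 comparisons.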
